A study of Mus musculus with 40 samples.

Results

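Genes for taking up and splitting beta-glucosides were followed in bacterial RNA from the cecal contents of C57BL/6 mice that ate broccoli powder. They were chosen by name: any feature whose symbol, after a trailing copy number is removed, begins with bgl or lic, in the count tables of 5 bacteria, named as deposited: F. rodentium, L.bacterium335, X. muris, D. muris and Acetatifactor. The rule found 17 of 16742 features. F. rodentium held 15 of them, L.bacterium335 held 1 (bglK), X. muris held 1 (bglX), and none carried such a symbol in Acetatifactor or D. muris. The share of features with any symbol ran from 18.4% in X. muris to 47.4% in F. rodentium, so a bacterium with no match by name may still have such a gene. The tables give no product names, so the roles stated here are those usually attached to each symbol. The symbols licA and licC are also used in other species for phosphorylcholine genes.

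The mice were 3 weeks old when they started the Total Western Diet, a rodent feed built on Western nutrient intakes. They ate it for 6 weeks, and for a further 3 weeks broccoli powder made up 0%, 0.5%, 1% or else 2.5% of it. No genotype beyond the strain and no other treatment is given, and all groups, the 0% group included, ate the Western-type feed throughout. Each diet has 10 libraries of total RNA depleted of ribosomal RNA, 40 in all, numbered here in the order of deposit. The labels do not say that each library is 1 mouse, so p-values measure the spread between these libraries.

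Beta-glucosides are plant compounds in which a glucose is joined to another sugar or to an aromatic group, cellobiose from cellulose and salicin among them. Many gut Firmicutes import them through a phosphotransferase system, a permease that adds a phosphate to the sugar as it enters, and a phospho-beta-glucosidase then splits the product inside the cell. Other bacteria import the sugar unchanged and phosphorylate it with a kinase, or split it outside the cytoplasm. Broccoli supplies plant fibre as well as glucosinolates, in which the glucose is linked through sulfur, and bacterial beta-glucosidases are candidates for splitting these. The comparisons ask whether RNA for these genes changed with the dose of broccoli, and in which bacterium.

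Counts over the 6 tables (these 5 bacteria and Alistipes) ranged from 236483 to 5107249 per library. F. rodentium counts were fewest at 2.5%: their median per library was 511338 at 0%, 780314.5 at 0.5%, 258912.5 at 1% and 75068.5 at 2.5%. At 2.5%, replicates 6 and 9 had 161 and 352 F. rodentium counts and were left out of its fit, which leaves 8 libraries there and 10 in every other diet. All other F. rodentium libraries passed the minimum of 10000 counts. In bulk RNA, fewer cells of a bacterium and less RNA per cell cannot be told apart. Levels are therefore given as counts per 1000000 (CPM) of the same bacterium's counts after TMM scaling, and genes were tested by the quasi-likelihood method of edgeR, with p-values adjusted by Benjamini and Hochberg's procedure over all features of that bacterium. Because gene lengths were not used here, levels are compared between diets and not between genes.

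Within F. rodentium, 6 of these genes were higher with broccoli than without: the permease gene licC, the phospho-beta-glucosidase genes bglC and bglH_1, the kinase gene bglK_1 and the regulator genes licR_2 and licR_3, each at 1 or both of the 0.5 and 2.5% doses. The test called 4 of 11 tested members higher at 0.5% and 5 of 11 at 2.5%, and none lower. Leaving out 2.5% replicate 8 or 0% replicate 10 lowered the 2.5% count to 3 in each case, a minimum of 50000 counts gave 2 higher and 1 lower (12 tested), and both the depth covariate and leaving out libraries 76 to 81 gave 2. Over all tested features these settings called, in that order, 74 of 1673, 75 of 1663, 78 of 1765, 36 of 1689 and 60 of 1677 higher at 2.5%. Leaving out libraries 76 to 81 gave 2 members higher at 0.5%, beside 19 of all 1677 features. Over all 1689 tested F. rodentium features the main fit called 3.55% higher and 4.91% lower at 0.5%, and 5.39% higher and 4.03% lower at 2.5%. At 1% it called none of the 11, against 0.474% of all features called higher. DESeq2 called 0 of the 11 as well, and 18 of all 1689 features. An unadjusted p under 0.05 was reached by 5 of the 11. The share of all features at that looser threshold was not counted, so the 5 cannot be set against 0.474%. The median log2 fold change of the 11 was 0.41, 0.48 and 0.81 at 0.5, 1 and 2.5%, beside 0.02, -0.04 and 0.01 for all tested features. The other 4 F. rodentium members, bglA, licA_2, licR_4 and licT, did not pass the low-count filter.

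**Figure D1:**
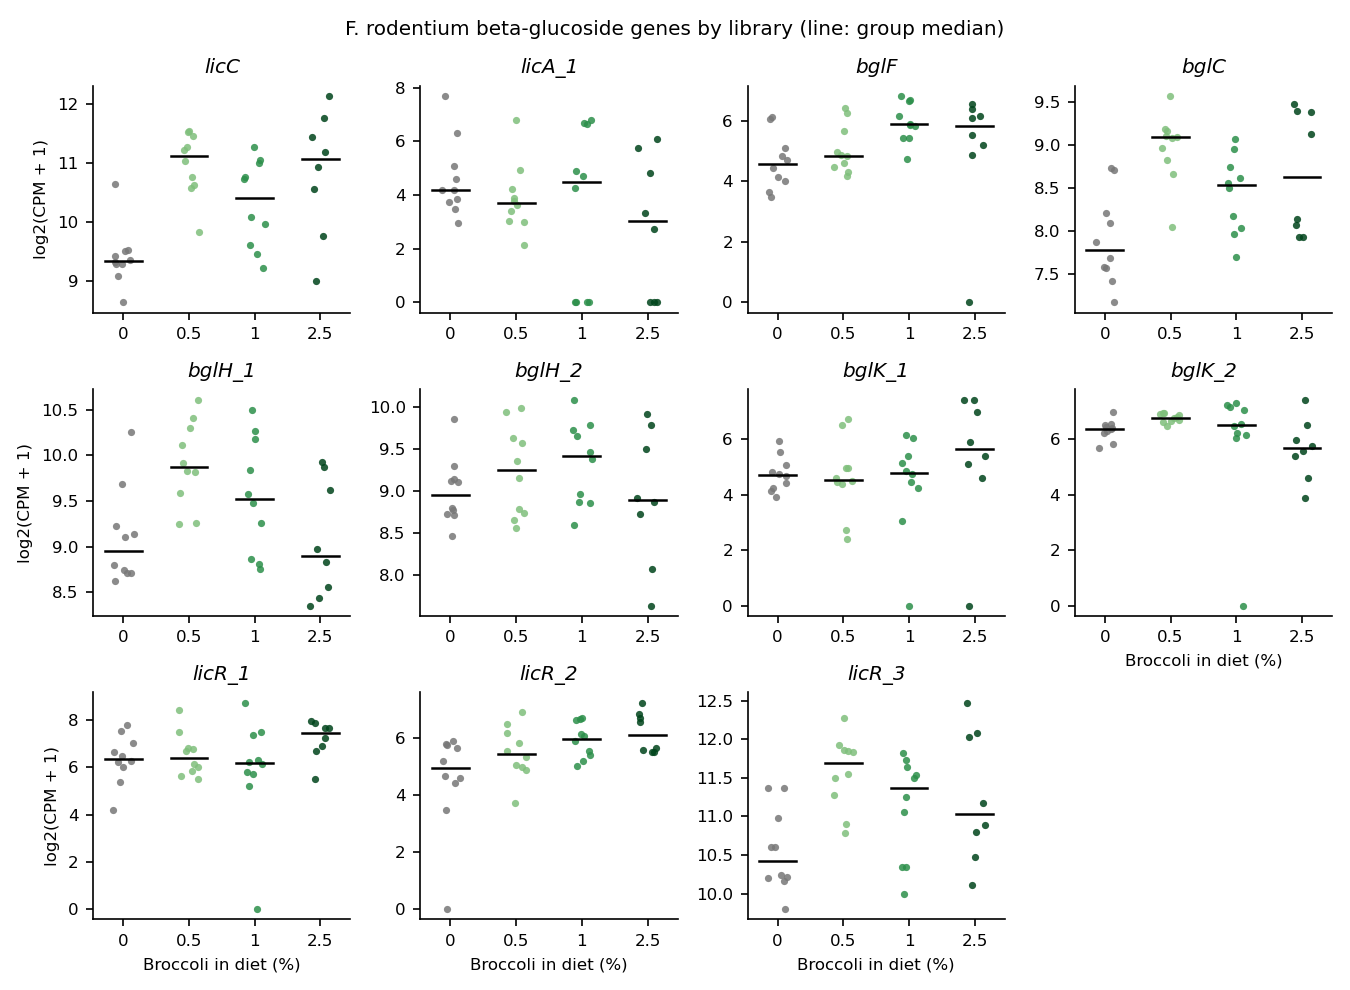
Levels of the 11 tested F. rodentium genes in each library, as log2(CPM + 1) on the vertical axis, by percent of broccoli in the diet; points are libraries (10, 10, 10 and 8) and lines are medians. licC, bglC and licR_3 have their lowest median at 0%, and points of every diet overlap those at 0% in each of the 11 panels.

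The permease components come first. licC (ENSB:3P1Flt3vuXE6Gva in the tables) is usually the membrane subunit of a lichenan and cellobiose permease of the phosphotransferase system. At 0% its level ran from 396 to 1590 CPM with a median of 644. At 0.5% it ran from 904 to 2990 with a median of 2230. All 10 libraries at 0.5% lay above the mean at 0%, and the only 0% library inside their range was replicate 10, the others reaching no higher than 737 CPM. The 4 libraries at 0.5% with the highest numbers in the labels, 76 to 79, had a licC median of 2230 CPM, and the other 6 had 2030. At 1% licC ran from 593 to 2470 CPM with a median of 1390, and at 2.5% from 510 to 4500 with a median of 2150. These 2 groups overlap the 0% group, and 8 of the 10 and 7 of the 8 exceed its mean.

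Against 0%, the licC log2 fold change was 1.57 ± 0.29 (SE, n = 10 and 10 libraries) at 0.5%, with an edgeR adjusted p of 0.000402. At 2.5% it was 1.62 ± 0.31 (n = 8 and 10), with an edgeR adjusted p of 0.000427. The value at 1%, 0.99 ± 0.29, did not pass the test (edgeR adjusted p = 0.15), and it passed without 0% replicate 10 (1.21, adjusted p = 0.0374), an alternative added after seeing the data. licC was not called between any 2 doses: 1% minus 0.5% was -0.58 (95% interval -1.14 to -0.02, edgeR adjusted p = 0.443), 2.5% minus 1% was 0.62 (0.03 to 1.22, adjusted p = 0.35), and 2.5% minus 0.5% was 0.05 (-0.55 to 0.64, adjusted p = 0.96). In order of median, licC was lowest at 0%, then 1%, then 2.5% and 0.5%, and no 2 neighbours among the 3 broccoli doses passed the adjusted test, although the unadjusted intervals for 1% minus 0.5% and for 2.5% minus 1% leave out 0. Within the 2.5% group, replicates 7 and 8, which had the most F. rodentium counts (347055 and 527971), had the lowest licC, 866 and 510 CPM. With the log2 F. rodentium total of each library as a covariate, the 2.5% change was 1.40 (edgeR adjusted p = 0.0218).

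The other permease genes did not pass the test at any dose. bglF, usually a single-chain beta-glucoside permease, had medians of 22.6, 27.6, 57.6 and 56.2 CPM at 0, 0.5, 1 and 2.5%. Its highest 0% library (67.8 CPM) lay above the median of each broccoli group, so the groups overlap. The bglF log2 fold change was 1.05 ± 0.39 at 1% (edgeR adjusted p = 0.386) and 0.94 ± 0.43 at 2.5% (adjusted p = 0.15). licA_1, usually the soluble phosphate-carrying subunit of the licC permease, had medians of 17.3, 12.1, 21.7 and 7.31 CPM. It was the only one of the 11 genes with a value below 0 at every dose: -0.62, -0.28 and -0.66, none of which was called (edgeR adjusted p = 0.671, 0.923 and 0.68). The second copy, licA_2, had sums of 20, 47, 18 and 5 counts over the 4 diets, too few to test.

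The phospho-beta-glucosidases split the imported phosphorylated sugar. bglC (ENSB:ordBxw6ds2dJ7yW) ran from 143 to 424 CPM at 0% with a median of 219, and from 263 to 758 at 0.5% with a median of 544. At 1% it ran from 208 to 538 CPM with a median of 369, and at 2.5% from 242 to 710 with a median of 420. As for licC, all 10 libraries at 0.5% lay above the 0% mean, and each broccoli group overlaps the 0% group. The bglC log2 fold change was 1.04 ± 0.23 at 0.5% (edgeR adjusted p = 0.00237), 0.49 ± 0.23 at 1% (adjusted p = 0.547) and 0.81 ± 0.25 at 2.5% (adjusted p = 0.0308). The 2.5% call was lost in 3 of 13 alternatives: with at least 50000 counts required (0.65, adjusted p = 0.138), without the libraries numbered 76 to 81 in any diet (0.76, adjusted p = 0.0896; 4 at 0.5%, 1 at 1% and 1 at 2.5%) and with the F. rodentium total as a covariate (0.51, adjusted p = 0.249).

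Of the 2 tested copies of bglH, a further phospho-beta-glucosidase, 1 rose. bglH_1 ran from 394 to 1220 CPM at 0% with a median of 497, and from 606 to 1560 at 0.5% with a median of 938. Its medians at 1 and 2.5% were 737 and 477 CPM. Only the 0.5% group stood with all 10 libraries above the 0% mean, while 3 of 8 libraries did so at 2.5%. The bglH_1 log2 fold change was 0.80 ± 0.24 at 0.5% (edgeR adjusted p = 0.0303), 0.48 ± 0.24 at 1% (adjusted p = 0.608) and 0.03 ± 0.26 at 2.5% (adjusted p = 0.966, 95% interval -0.48 to 0.54). Without libraries 76 to 81 the 0.5% value was 0.84 and was not called (adjusted p = 0.0989). bglH_2 had medians of 498, 611, 684 and 475 CPM, and its log2 fold changes of 0.29, 0.34 and 0.08 were not called (edgeR adjusted p = 0.503, 0.706 and 0.897). The remaining gene of this role, bglA, had 0 counts in all 40 libraries, which over the 6582564 F. rodentium counts at 0% allows up to 0.456 CPM of those raw counts, covering counting error only.

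How the copies moved relative to each other was tested within each library, as the difference of their log2(CPM + 1); this test was chosen after the copies' values had been seen. The mean of bglH_1 minus bglH_2 was 0.10 ± 0.30 (SD, n = 10) at 0% and 0.67 ± 0.28 (SD, n = 10) at 0.5%. The change of 0.57 had a two-sided exact permutation p of 0.000152 (adjusted p = 0.00228 over 15 such tests), and the difference exceeded the 0% mean in 10 of 10 libraries at 0.5%. At 1 and 2.5% the same difference changed by 0.11 and 0.04 (adjusted exact permutation p = 0.625 and 0.927). How reads shared by copies were counted is not stated in the labels or tables, so the separate counts of numbered copies are uncertain.

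**Figure D2:**
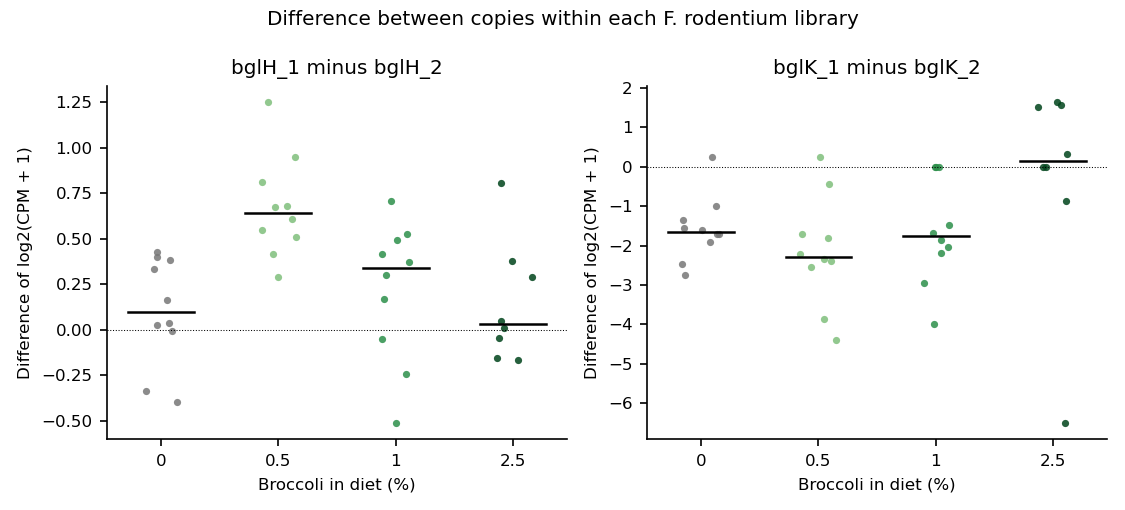
Difference between 2 copies of a gene within each F. rodentium library, as log2(CPM + 1) of the first copy minus that of the second, by percent of broccoli; points are libraries and lines are medians. At 0.5% all 10 points of bglH_1 minus bglH_2 lie above the 0% mean of 0.10, while bglK_1 minus bglK_2 is widely spread at 2.5%.

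The kinase gene bglK has 2 copies in F. rodentium. A beta-glucoside kinase phosphorylates a sugar that has entered unphosphorylated. bglK_1 (ENSB:LEa1dFLCd5-RQdD) ran from 14.3 to 61.0 CPM at 0% with a median of 25.3, from 4.24 to 106 at 0.5% with a median of 22.4, and from 0 to 71.1 at 1% with a median of 27. At 2.5% it ran from 0 to 173 CPM with a median of 50.4, and 6 of 8 libraries lay above the 0% mean. Each broccoli group overlaps the 0% group, and depth was thin: the median at 2.5% was 6.5 raw counts per library over all 10. The bglK_1 log2 fold change was 0.41 ± 0.45 at 0.5% (edgeR adjusted p = 0.668), 0.06 ± 0.51 at 1% (adjusted p = 0.978) and 1.53 ± 0.51 at 2.5% (adjusted p = 0.0493). That last call was lost in 5 of 13 alternatives: without 2.5% replicate 8, which held 81 of the 136 counts at that dose (1.32, adjusted p = 0.114), without 0% replicate 10 (1.56, 0.0584), without libraries 76 to 81 (1.26, 0.0766), with the 50000 minimum (1.62, 0.056) and with the covariate (1.36, 0.148).

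bglK_2 was not called at any dose. Its medians were 83.0, 110, 90.9 and 50.7 CPM at 0, 0.5, 1 and 2.5%, and at 0.5% its libraries lay between 89.0 and 124. The bglK_2 log2 fold changes were 0.39 ± 0.24, 0.35 ± 0.25 and -0.61 ± 0.31 (edgeR adjusted p = 0.356, 0.73 and 0.196). At 2.5% against 0.5% it was -1.01 (95% interval -1.60 to -0.41, edgeR adjusted p = 0.0512), and when libraries with fewer than 50000 F. rodentium counts were left out it was called lower than at 0% (-0.91, adjusted p = 0.0331). The within-library difference bglK_1 minus bglK_2 went from -1.58 ± 0.82 (SD, n = 10) at 0% to -0.29 ± 2.67 (SD, n = 8) at 2.5%, a change of 1.29 that was not called (exact permutation p = 0.167, adjusted p = 0.501). Over the 5 libraries at 2.5% with at least 50000 F. rodentium counts the change was 2.42 (exact permutation p = 0.000666, adjusted p = 0.005), so that comparison turns on which shallow libraries are kept.

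Of the regulators, licR usually activates a lic operon and is itself a target of phosphotransferase proteins, and licT is an antiterminator that lets transcription run on into beta-glucoside operons. licR_3 ran from 893 to 2650 CPM at 0% with a median of 1380, and from 1760 to 4960 at 0.5% with a median of 3310. Its medians at 1 and 2.5% were 2660 and 2100 CPM, with highest values of 3620 and 5690. All 10 libraries at 0.5%, 7 of 10 at 1% and 6 of 8 at 2.5% lay above the 0% mean, and the groups overlap. The licR_3 log2 fold change was 1.00 ± 0.26 at 0.5% (edgeR adjusted p = 0.0123), 0.60 ± 0.26 at 1% (adjusted p = 0.519) and 0.82 ± 0.28 at 2.5% (adjusted p = 0.0493). The 2.5% call was lost in 6 of 13 alternatives, with adjusted p up to 0.281, among them without 0% replicate 10 (0.86, adjusted p = 0.0514) and without 0.5% replicate 10 (0.83, adjusted p = 0.0533), and the 0.5% call in 1 of 13, without libraries 76 to 81 (1.02, adjusted p = 0.0628).

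licR_2 had medians of 30.4, 43.3, 62.5 and 71.7 CPM from 0 to 2.5%. At 0% it ran from 0 to 58.5 CPM and at 2.5% from 45 to 152, where all 8 libraries lay above the 0% mean. The ranges still overlap between 45 and 58.5 CPM. Its log2 fold change was 0.61 ± 0.35 at 0.5% (edgeR adjusted p = 0.329), 0.84 ± 0.37 at 1% (adjusted p = 0.519) and 1.30 ± 0.40 at 2.5% (adjusted p = 0.0308). The call at 2.5% was lost without 2.5% replicate 8, which held 75 of the 155 counts there (1.19, adjusted p = 0.0636). licR_1, with medians of 82.3, 85.5, 71.8 and 177 CPM, was not called at any dose (log2 fold changes 0.25, -0.06 and 0.77, edgeR adjusted p = 0.777, 0.971 and 0.274). licR_4 had 0, 2, 20 and 3 counts and licT had 157, 102, 94 and 40 counts summed over the 4 diets; neither was tested.

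**Figure D3:**
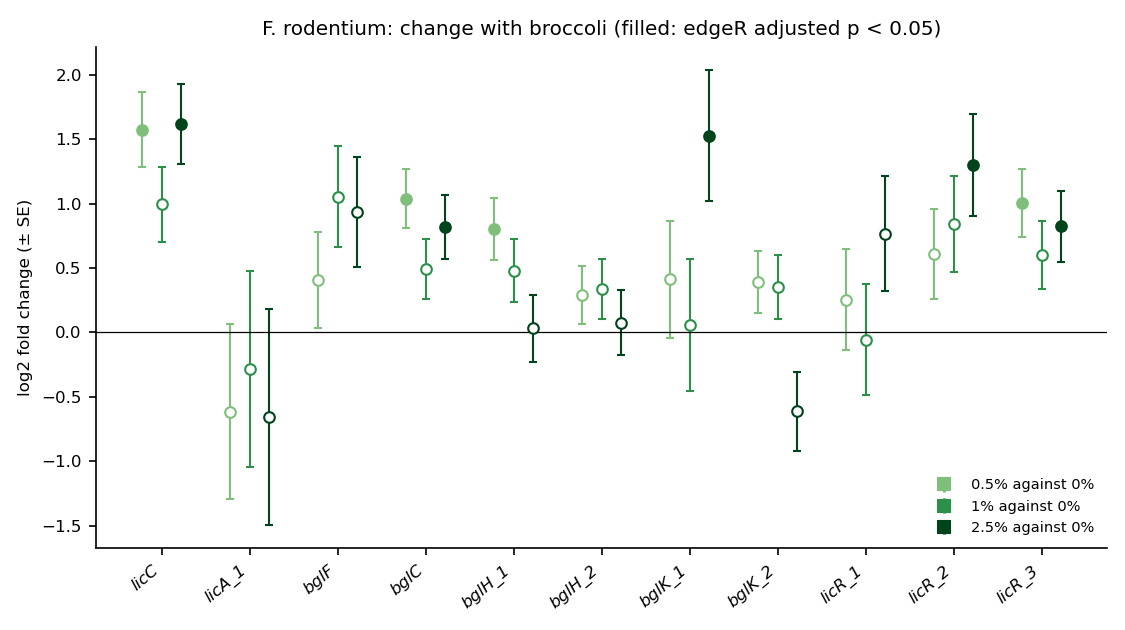
Log2 fold change against 0% (points, with bars of 1 SE) of the 11 tested F. rodentium genes at 0.5, 1 and 2.5% broccoli; filled points have an edgeR adjusted p below 0.05. licC has values of 1.57, 0.99 and 1.62, no point at 1% is filled, and bglK_1 and bglK_2 lie on opposite sides of 0 at 2.5% (1.53 and -0.61).

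Between the broccoli doses edgeR called none of the 11 F. rodentium genes. At 1% against 0.5%, 2 of the 11 had an unadjusted p under 0.05 and DESeq2 called 0, with 0.296% of all features called by edgeR in either direction. At 2.5% against 1%, 3 had an unadjusted p under 0.05 and DESeq2 called 1 lower, bglK_2, while edgeR called 0.77% of all features. At 2.5% against 0.5%, 3 had an unadjusted p under 0.05 and DESeq2 called 2 lower, bglH_1 and bglK_2, while edgeR called 3.37% of all features. bglH_1 at 2.5% against 0.5% was -0.77 (95% interval -1.28 to -0.26, edgeR adjusted p = 0.0949). A slope over the percent of broccoli was called by edgeR for none of the 11, against 5.98% of all features in either direction, with 4 at an unadjusted p under 0.05 and 3 called higher by DESeq2. The closest were licR_2, 0.48 log2 per percent of broccoli (edgeR adjusted p = 0.0507), bglK_1 with 0.58 (adjusted p = 0.054) and licC with 0.42 (adjusted p = 0.0798). For these comparisons, the shares of all features called by DESeq2 or at an unadjusted p under 0.05 were not counted. The member counts by those rules therefore cannot be set against the edgeR shares. At 2.5% against 0%, DESeq2 called 274 of 1689 features where edgeR called 159.

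Several of these genes varied together from library to library. Over the 38 F. rodentium libraries, Pearson's r of log2(CPM + 1) was 0.83 for bglC with licC, 0.82 for bglC with licR_3 and 0.79 for licC with licR_3. After each diet's mean was taken away, these were 0.72, 0.74 and 0.70, so they are not only differences between diets. bglH_1 went with bglH_2 (0.80) and with licR_3 (0.80), while bglK_1 and bglK_2 had an r of 0.32. These are descriptions, and the points share library and depth. Outside the bgl and lic genes, the named features most like licC were mglB (0.67), usually a sugar-binding protein of a galactoside transporter, spxA (0.65), usually a stress regulator, and ltaE (0.55). The same spxA led for bglC (0.69) and licR_3 (0.70), whereas bglH_1 was most like rmlD (0.75), pgcA (0.74) and inlI (0.72), and licR_2 most like aptB_1 (0.71) and hemE (0.62).

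Other F. rodentium genes for beta-glucosides and cellobiose were called at a rate near that of all features. Of 15 symbols found from a list of cellobiose, chitobiose, glucomannan and xylan genes, 13 were tested: none was called higher at any dose and 1, cbpA, was lower at 0.5% (-0.80 ± 0.25, edgeR adjusted p = 0.0402). Over all features 3.55% were called higher and 4.91% lower at 0.5%, and 5.39% higher at 2.5%, so these counts show nothing about the list. At 2.5%, celB, usually a cellobiose permease subunit, had a value of 1.12 ± 0.41 (adjusted p = 0.0738), and gmuC_1, usually a permease subunit for glucomannan fragments, 1.62 ± 0.72 (adjusted p = 0.142), neither of which was called. The symbol cbpA is also used for a DnaJ-like chaperone, so its place in the list is uncertain. Of 4 tested genes of the shared phosphotransferase chain, ptsI, the enzyme that starts the phosphate relay, rose at 0.5% (0.45 ± 0.14, edgeR adjusted p = 0.0398), and ptsH, the next carrier, was lower at 2.5% than at 0.5% (-0.81, adjusted p = 0.00328). The ptsH slope was also called, at -0.26 log2 per percent of broccoli (edgeR adjusted p = 0.0316), beside 5.98% of all features in either direction. None of 3 tested genes leading glucose into glycolysis was called against 0%, and 1 of them, pgcA, usually a phosphoglucomutase, was lower at 2.5% than at 0.5% (-0.59, adjusted p = 0.0337). At 2.5% against 0.5%, edgeR called 3.37% of all features in either direction. The medians of the cellobiose list were 0.29, 0.02 and -0.27 at 0.5, 1 and 2.5%.

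In L.bacterium335, bglK went from no counts to readily counted. This gene (ENSB:HI-70noOk9lYTTO) had 0 counts in all 10 libraries at 0%, over 757208 counts on that genome. At 0.5% it had 88 counts in 7 of 10 libraries (lowest 0, median 7, highest 27), at 1% 202 counts in 8 of 10 (0, 14.5, 71), and at 2.5% 886 counts in 9 of 10 (0, 86, 147). Each broccoli group thus touches the 0% group only in its libraries with 0 counts. Scaled to the bacterium's own counts, the medians were 93.5, 84.7 and 123 CPM. Against a floor of 3 counts summed over the 0% libraries, bglK was at least 29-fold higher at 0.5%, at least 27.4-fold at 1% and at least 33.2-fold at 2.5%. These bounds rest on TMM scaling within the bacterium: on counts of all 6 tables they were at least 17.5, 67.9 and 233-fold, and on unscaled counts of the bacterium at least 21.2, 26.3 and 43-fold.

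edgeR called bglK higher at each dose, as it did 79.4%, 78.4% and 77.8% of all 1384 tested features of L.bacterium335. No p is given for these calls. With 0 counts in every 0% library, bglK passed the low-count filter through the broccoli groups alone, which fixes the direction. Its fitted changes stood at the 57.2, 44.7 and 51.3 percentiles of those features, so bglK was near the middle of the features that passed the filter. With no low-count filter, the median change of 4240 features was 3.93, 4.58 and 5.23, against 7.6, 7.68 and 7.94 with it. The placement of bglK thus holds for the filtered features only. At 0%, the 5 features with most counts held a median of 76.8% of the L.bacterium335 counts and a median of 623.5 features were detected; at 2.5% the medians were 18.1% and 3544.5. Their part in the bglK result was not tested. The 2.5% library with 0 bglK counts, replicate 9, had 79.1% of its L.bacterium335 counts on 5 features and 708 features detected. Between doses bglK was not called, while edgeR called 0.145% (1% against 0.5%), 8.38% (2.5% against 1%) and 13.2% (2.5% against 0.5%) of the features in either direction; 0 of these 3 comparisons of bglK had an unadjusted p under 0.05, and DESeq2 called 0. Its slope of 0.80 log2 per percent stood beside a median slope of 0.81 over all tested features, 46.1% of which were called in either direction. The slope includes the same 0% zeros, so no p and no count of calls is given for it. It was 0.69 with DESeq2, 2.04 with RLE factors, 0.95 with no low-count filter and 1.25 with unscaled totals. It was 0.91 without libraries 76 to 81, 0.88 without 2.5% replicate 9 and 0.92 without 0.5% replicate 10. With the L.bacterium335 total as a covariate it was -0.0042. At 2.5% against 0.5%, RLE factors gave 2.75 and a call (adjusted p = 0.00572), where TMM gave 0.12 (adjusted p = 0.952).

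The bglK family is tested in these 2 bacteria alone, and its values in them are given as a description. With copies summed, log2(CPM + 1) of bglK changed from 0 to 2.5% by 6.96 in L.bacterium335 and by 0.08 in F. rodentium. The within-library difference between them changed by 6.89 (n = 10 and 8 libraries), or by 3.66 with a pseudocount of 10 CPM in place of 1. L.bacterium335 had no bglK counts at 0%, so the outcome of a test was fixed by those zeros and no p is given. The median change of all tested features at 2.5% was 7.94 in L.bacterium335 and 0.01 in F. rodentium. Among features that passed the filter, the difference between the 2 bacteria was thus shared and was not particular to bglK. With no low-count filter the medians were 5.23 and 0.01.

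In X. muris, bglX, usually a beta-glucosidase of the periplasm, was counted at low levels in every diet. Its counts summed to 7, 7, 22 and 173 at 0, 0.5, 1 and 2.5%, in 3, 3, 6 and 8 of 10 libraries. Per 1000000 raw X. muris counts these were 36.1, 23.9, 48.7 and 129. The libraries with most counts were at 2.5%, where the highest had 55, but every group included libraries with 0. bglX did not pass the low-count filter, and with no filter its log2 fold change at 2.5% was 0.53 ± 0.84 (edgeR adjusted p = 0.711). The median of all 2456 X. muris features in that fit was 1.03, above the value of bglX. On unscaled totals, the median change of the 670 X. muris features that passed the filter was 1.85. The higher raw share of bglX at 2.5% was thus not particular to it.

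**Figure D4:**
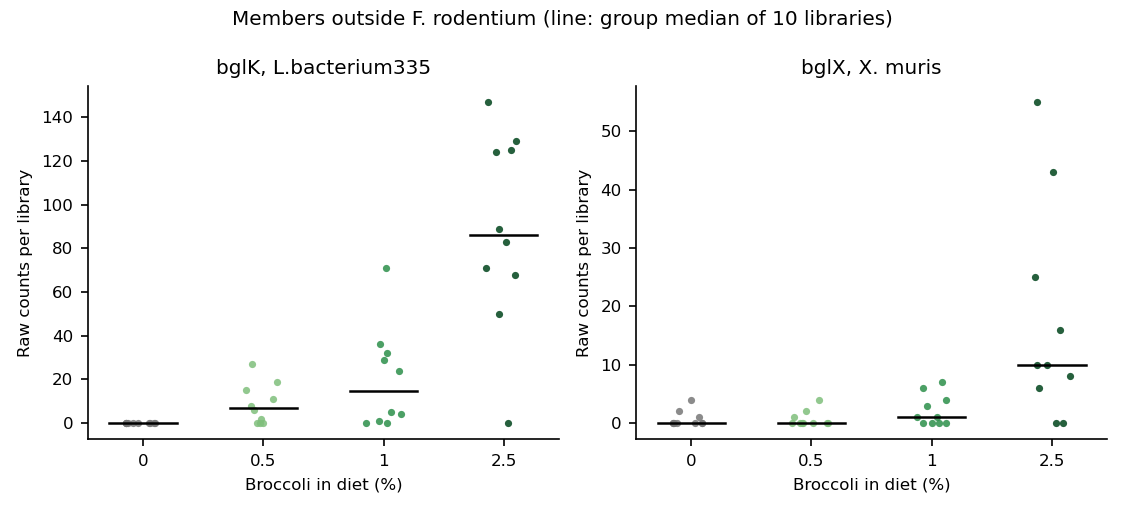
Raw counts per library of bglK on L.bacterium335 and of bglX on X. muris, by percent of broccoli; points are the 10 libraries of a diet and lines are medians. bglK is at 0 in all 10 libraries at 0% and has a median of 86 at 2.5%, and bglX has medians of 0, 0, 1 and 10.

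Across the 3 bacteria, the summed bgl and lic counts per 1000000 of all 6 tables had medians of 2710 at 0%, 5610 at 0.5%, 3160 at 1% and 716 at 2.5%. The ranges were 1750 to 4550, 3670 to 7120, 319 to 5150 and 0 to 1820, so the 2.5% group met the 0% group only where its highest library passed the lowest at 0%. F. rodentium supplied 100%, 99.9%, 99.1% and 88.5% of these counts with each diet pooled. L.bacterium335 supplied 0%, 0.108%, 0.831% and 9.63%, and X. muris 0.0313%, 0.00862%, 0.0906% and 1.88%. Pooling gives most weight to deep libraries: 0.5% replicate 10 held 34390 of the 81102 F. rodentium counts at that dose. Single libraries differed from the pool. At 2.5%, replicate 6 had 0 of these counts from F. rodentium, 83 from L.bacterium335 and 10 from X. muris. Replicate 9 at 2.5% had 0 from each. Within F. rodentium's own counts, by contrast, the 15 genes took a median of 0.369%, 0.743%, 0.647% and 0.692% over kept libraries. The lower sum at 2.5% thus stood beside fewer F. rodentium counts and a larger share of those counts on these genes. How far cell number and RNA per cell each contributed cannot be told apart.

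**Figure D5:**
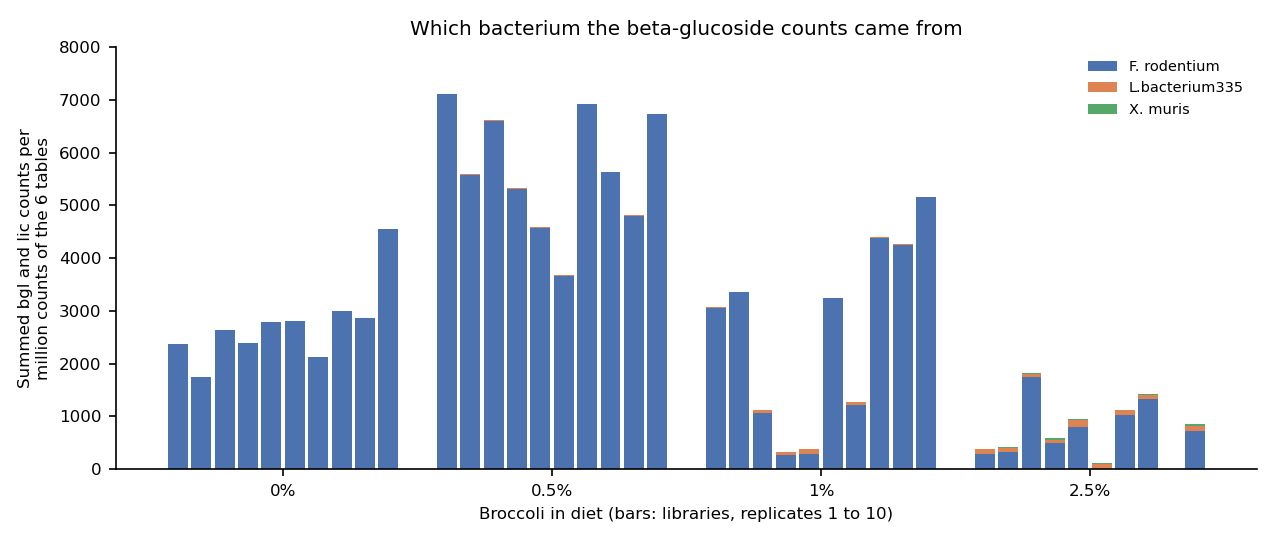
Summed bgl and lic counts per 1000000 counts of the 6 tables in each library (bars, replicates 1 to 10 of each diet), coloured by bacterium. Bars at 0.5% reach 7120 and are nearly all F. rodentium, bars at 2.5% reach 1820, and L.bacterium335 supplies 9.63% of the pooled counts there. The sum covers 15 genes named in F. rodentium and 1 each in L.bacterium335 and X. muris.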

How the data were processed

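The deposited values were raw counts per feature, whole numbers without normalization, in 6 tables with 40 columns each, every column matched to 1 library by its title. Which aligner, counter and builds the authors used was not found in the labels or the file headers. Per the labels' protocols, ribosomal RNA was depleted before KAPA RNA HyperPrep library preparation. No bacterial sequence or coordinates were used here.

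Each genome was fitted alone with edgeR 4.0.16 (R 4.3.3): libraries with at least 10000 counts on it, filterByExpr, TMM factors, glmQLFit and glmQLFTest, two-sided, with diet as the only term and 1 shared spread, Benjamini-Hochberg adjusted within genome and contrast at 0.05. CPM are counts over TMM-scaled totals of tested features. Standard errors are the absolute log2 fold change over the root of F. In X. muris 5 stable RNA features were left out. Single values were tested by exact permutation over libraries, enumerating all splits. The scripts were tested on simulated data. All 180 within-diet pairs of libraries differed beyond sampling noise.

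The genes and lists were chosen with earlier results of these data known. Described in full are genes called at a dose against 0%; likest features are the 3 of highest correlation. Alternatives were RLE factors, no low-count filter, DESeq2 1.42.0, minimum counts of 50000 or none, a depth covariate and left-out libraries. Leaving out 0% replicate 10 or 0.5% replicate 10, unscaled totals, keeping the stable RNAs and the copies test were added after seeing the data. Floors for 0 counts cover counting error only; intervals of fold changes come from the edgeR fit and include the spread between libraries.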

Additional observations from a re-analysis of the deposited data

Results flagged for a closer look

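In 7 of 47 groups of libraries examined, 1 library stood apart from the rest by Dixon's criterion. For independent, normally distributed values chance alone gives this in about 1 in 20 groups. CPM are bounded at 0 and the groups share libraries, so the 7 of 47 cannot be set against that rate. In F. rodentium at 0%, licC was 1590 CPM in replicate 10, against 737 in the next. bglH_1 was 1220 CPM in 0% replicate 4 (next 823), and bglH_2 was 926 CPM in the same library (next 630). licA_1 was 203 CPM in 0% replicate 2 (next 77.8), and 111 CPM in 0.5% replicate 3 (next 29.7). licR_1 was 346 CPM in 0.5% replicate 3 (next 179), and 428 CPM in 1% replicate 5 (next 183), where it rests on 13 counts.

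From 0 to 2.5%, log2(CPM + 1) of bglK changed by 6.89 more in L.bacterium335 than in F. rodentium. L.bacterium335 had 0 bglK counts in every 0% library, which fixes the outcome of a test. All its tested features had a median change of 7.94, against 0.01 in F. rodentium. Among features that passed the filter, the difference was thus not particular to bglK. With no low-count filter the medians were 5.23 and 0.01.

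In Alistipes, which the choice of genes left out, bglB had 85 counts at 2.5% in 9 of 10 libraries, 3 counts at 1% and 0 at 0 and 0.5%. The 0% libraries held only 1620 Alistipes counts in all, beside 161531 at 2.5%, so no difference was detectable at this depth.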

How the results depend on the processing

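Over 36 changes against 0% (12 tested genes, 3 doses) and 13 alternatives, 439 of 468 kept their direction and side of the threshold, 17 lost the call, 2 gained it and 10 changed sign. Some of this agreement was fixed in advance. For F. rodentium, leaving out 2.5% replicate 9 and keeping the stable RNAs repeat the main fit. For L.bacterium335, using no minimum of counts and keeping the stable RNAs repeat it. Counts out of 13 include these repeats. licC at 0.5% (1.52 to 1.82) and 2.5% (1.24 to 1.84) and bglC at 0.5% (1.04 to 1.2) kept their calls in all 13. So did L.bacterium335 bglK at each dose, where the 0 counts at 0% fix the direction. The 10 sign changes were in 6 values called in neither fit: bglF (-0.01) and bglK_1 (-0.16) at 0.5% without libraries 76 to 81, bglK_1 at 1% (-0.01) with the depth covariate, licR_1 at 1% with RLE factors (0.03), DESeq2 (0.05) and without 0% replicate 10 (0.02, with -0.06 to 0.02 over the left-out libraries), bglH_1 at 2.5% with no minimum (-0.02), without libraries 76 to 81 (-0.10) and with the covariate (-0.14), and bglH_2 at 2.5% with the covariate (-0.09). Of the 12 tested genes, 5 were called at 0.5% and 3 without libraries 76 to 81 (bglH_1, 0.84 and adjusted p = 0.0989, and licR_3 were lost), which removes 4 of the 10 libraries at that dose. The L.bacterium335 gene bglK is 1 of those called in every such count against 0%. Over all F. rodentium features, calls at 0.5% fell from 143 of 1689 to 40 of 1677 without libraries 76 to 81. At 2.5%, 6 became 3 without those libraries, 3 with the covariate, 4 with 50000 counts (1 of them lower) and 4 without 2.5% replicate 8 or 0% replicate 10. All F. rodentium calls at 2.5% were 159 of 1689 in the main fit and 78 with the covariate. They were 102 of 1677 without libraries 76 to 81 and 102 of 1765 with 50000 counts. Without 2.5% replicate 8 they were 167 of 1673, and without 0% replicate 10 they were 138 of 1663. At 1%, 1 became 2 with no low-count filter (licR_4) and 2 without 0% replicate 10 (licC). All F. rodentium calls at 1% were 8 of 1689 in the main fit, 19 of 1992 with no filter and 6 of 1663 without 0% replicate 10. Between doses, 0 became 1 at 1% against 0.5% with no filter (licR_4), 1 at 2.5% against 1% with DESeq2 and 1 with 50000 counts (bglK_2), and at 2.5% against 0.5% 1 with RLE factors (bglK of L.bacterium335), 2 with DESeq2, 1 with 50000 counts, 1 with no minimum and 1 without 0% replicate 10. For the slope of the tested F. rodentium genes, 0 became 1 with RLE factors, 3 with DESeq2, 1 with no minimum and 3 with unscaled totals. It became 1 without libraries 76 to 81 and 1 without 2.5% replicate 8. Shares of all features called between doses or for the slope were counted in the main fit only. These between-dose and slope counts therefore show nothing about the genes as a set. The cause of the shifts in calls was not tested. RLE factors moved the median change of all tested features at 2.5% from 7.94 to 9.20 in L.bacterium335 and from 0.01 to 0.12 in F. rodentium, and the F. rodentium calls at 0.5% from 60 higher and 83 lower to 78 and 72, and at 2.5% from 91 and 68 to 111 and 45. No paired analysis was possible because replicate numbers follow the order of deposit. Depth limits the low genes: of those tested, median raw counts at 2.5% were 0.5 for licA_1, 4 for bglF, 4.5 for licR_2, 5 for bglK_2 and 6.5 for bglK_1.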
